A study of Mus musculus with 2 samples.

Results

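*Alx1*, *Alx4*, *Prrx1*, *Prrx2*, *Twist1* and *Twist2*, which encode transcription factors of head mesenchyme, were chosen by name and read from the counts of single cells of the ocular area. They are 6 of the 27998 genes counted, and all 6 were present in both libraries. One library came from 1 wild-type (WT) embryo and the other from 1 *Mab21l1*-null (KO) embryo, both of the C57BL/6J strain at the 26-somite stage (E9.25), and each embryo gave both of its optic areas, dissociated with trypsin. Each genotype therefore had 1 library and no replicate, so no test was made. The intervals given here are exact 95% intervals that cover counting error only, and they hold neither the spread between embryos nor differences in where the tissue was cut. Those of levels and ratios pool counts over cells, so they also leave out the spread between cells of a library.

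The Alx and Prrx proteins are homeodomain factors, and the Twist proteins are basic helix-loop-helix factors. In the embryo they are known for the mesenchyme of the face, skull and limbs, much of which arises in the head from migrating neural crest cells. Loss of *Alx1* disturbs the frontonasal region and the eye, *Alx4* acts in skull and facial growth, *Prrx1* and *Prrx2* act together in jaw and limb mesenchyme, *Twist1* is required for cranial neural tube closure and skull sutures, and *Twist2* acts in dermal mesenchyme. Twist proteins bind DNA as dimers with E proteins, whereas Id proteins bind E proteins and keep them off DNA.

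Cells were placed in classes by marker genes, none of which was a member. A mesenchyme cell had at least 1 unique molecular identifier (UMI), which stands for 1 captured RNA molecule, of each of *Col3a1*, *Col1a2* and *Pdgfra*. This gate held 260 of 1680 cells (15.5%) in the library labelled WT and 352 of 2404 cells (14.6%) in the library labelled KO, with medians of 20336 and 16690.5 UMIs per cell. Other classes needed 3 markers of 1 type. Of the mesenchyme cells, 32 and 33 also passed the gate of another class, in 29 and 27 cases the neural gate. The 8 neural markers summed to 151 CPM (UMIs per 1000000 UMIs of the same cells) in WT mesenchyme and 133 CPM in KO mesenchyme, against 840 and 863 CPM in neural cells, with *Six6* highest and 0 and 1 of the 8 without a UMI. One of the 8, *Emx2*, was higher in mesenchyme, at 25 CPM and 40 CPM, than in neural cells, at 1.01 CPM and 0.93 CPM. The summed markers of each of the other 5 classes lay between 4.29 and 35.0 CPM in mesenchyme. A further 210 WT and 363 KO cells had 2 of the 3 mesenchyme markers and passed no other gate. The libraries shared 15 cell barcodes, none among mesenchyme cells. *Mab21l1* itself was counted at 20.3 CPM over all WT cells and 32.5 CPM over all KO cells, but in ectoderm cells at 85.5 CPM in WT and 38.6 CPM in KO, a KO over WT ratio of 0.45 (0.27 to 0.72), and the sources used here do not say which part of the gene the null allele lacks. The libraries are therefore called by their labelled genotype, on which every direction rests.

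All 6 genes were placed on GRCm38. *Twist1* is on the plus strand of chromosome 12 (33957671 to 33959829) with 2 exons, and *Twist2* on the plus strand of chromosome 1 (91801461 to 91848028). *Prrx1* is on the minus strand of chromosome 1 (163245119 to 163313710) and *Prrx2* on the plus strand of chromosome 2 (30834972 to 30881251). *Alx4* is on the plus strand of chromosome 2 (93642384 to 93681339), and *Alx1* is on the minus strand of chromosome 10 (102998707 to 103030215). Exons of *Alx1* overlap a noncoding gene on the same strand, Gm17028, so that reads there could be assigned to either gene or dropped. Exons of *Twist2* overlap Gm29100, which lies on the opposite strand.

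Relatives share only short stretches of coding sequence. The longest identical run was 19 bases for *Alx1* and *Alx4*, 19 for *Prrx1* and *Prrx2* and 23 for *Twist1* and *Twist2*. It is shown for the *Twist* pair, the longest of the 3, in which it starts at coding base 403 of *Twist1* and base 265 of *Twist2* and lies 896 and 2081 bases from the 3′ ends of the transcripts, in lower case with no part marked.
Twist1 and Twist2: ctgcgcaagatcatccccacgct

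The upstream sequences of the *Prrx* pair, whose levels differed in opposite directions between the libraries, are shown as the 250 bases before the RefSeq start site on GRCm38.p6, 5′ to 3′ on the strand of the gene. The RefSeq start sites differ from the starts of the gene positions given above. The *Prrx1* window overlaps its gene as placed there, which starts at 163313710 on the minus strand. The *Prrx2* window lies wholly inside its gene as placed there, which starts at 30834972. Capitals mark TAATTA, a core that homeodomain proteins bind.
Prrx1, chr1:163313651-163313900, minus strand: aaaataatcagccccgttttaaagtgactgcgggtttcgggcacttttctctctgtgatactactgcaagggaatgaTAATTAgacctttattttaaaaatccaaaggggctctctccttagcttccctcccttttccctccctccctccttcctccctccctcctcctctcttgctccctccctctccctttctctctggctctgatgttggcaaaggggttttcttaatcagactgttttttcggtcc
Prrx2, chr2:30845117-30845366, plus strand: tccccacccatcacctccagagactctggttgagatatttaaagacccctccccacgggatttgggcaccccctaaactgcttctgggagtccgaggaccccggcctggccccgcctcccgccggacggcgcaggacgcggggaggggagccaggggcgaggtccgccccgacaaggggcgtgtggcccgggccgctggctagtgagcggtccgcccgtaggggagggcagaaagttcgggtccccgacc
The *Prrx1* window holds 1 such core, 173 bases before the start site, and 47.6% G and C, whereas the *Prrx2* window holds none and 70.0% G and C. TAATTA, which reads the same on both strands, occurs in 4.85% of 32817 promoter windows of that length. CANNTG, the E-box bound by basic helix-loop-helix dimers, occurs in 66.2% of them and in none of the windows of *Prrx1*, *Prrx2*, *Twist1* and *Twist2*. Windows of *Alx1* and *Alx4* were not used here.

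Among the gated classes all 6 genes were highest in mesenchyme, except *Alx1* in KO, which was as high in neural crest cells. Cells with only 2 mesenchyme markers are not among these classes. In KO they stood above mesenchyme for all 6 genes, for example *Prrx1* at 234 CPM (222 to 247). In WT they did so for *Alx1*, *Prrx1*, *Twist1* and *Twist2*, and not for *Alx4* and *Prrx2*. *Alx1* reached 152 CPM (142 to 162) in WT and 171 CPM (161 to 181) in KO mesenchyme, and *Alx4* reached 72.0 CPM (65.3 to 79.3) and 57.3 CPM (51.7 to 63.4). *Prrx1* reached 142 CPM (132 to 152) and 179 CPM (169 to 190), and *Prrx2* reached 343 CPM (328 to 359) and 223 CPM (212 to 235). *Twist1* reached 106 CPM (97.6 to 115) and 75.1 CPM (68.7 to 82.1), and *Twist2* reached 65.2 CPM (58.8 to 72.1) and 75 CPM (68.5 to 81.9). Levels are meant for comparison between classes and libraries, because 3′ tags were counted. Where counts of different genes stand side by side below, they do not give relative amounts of RNA.

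Relative to all other kept cells of the same library, the 6 genes were 5.19-fold to 6.93-fold higher in WT mesenchyme and 3.77-fold to 5.38-fold higher in KO mesenchyme. Of the 6, 5 were at least 4-fold higher in both libraries, all but *Prrx2*, against 0.788% of the 12183 genes tested. That count changed with the gate, being 2 with at least 2 UMIs of each marker, and was 1 after cells had been thinned to 10000 UMIs. With 2 of the 3 markers all 6 passed, with folds from 9.54 for *Prrx2* to 23.8 for *Alx4* in WT and from 6.92 for *Prrx2* to 18.4 for *Alx4* in KO. Cells with only 2 mesenchyme markers lie among the other cells and carried the same factors, for example *Alx1* at 166 CPM and 198 CPM and *Twist1* at 113 CPM and 86.3 CPM in WT and KO. Against neural cells alone the folds were larger, from 10.7 for *Prrx2* to 39.9 for *Alx4* in WT and from 7.46 for *Prrx2* to 35.0 for *Alx1* in KO.

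**Figure D1:**
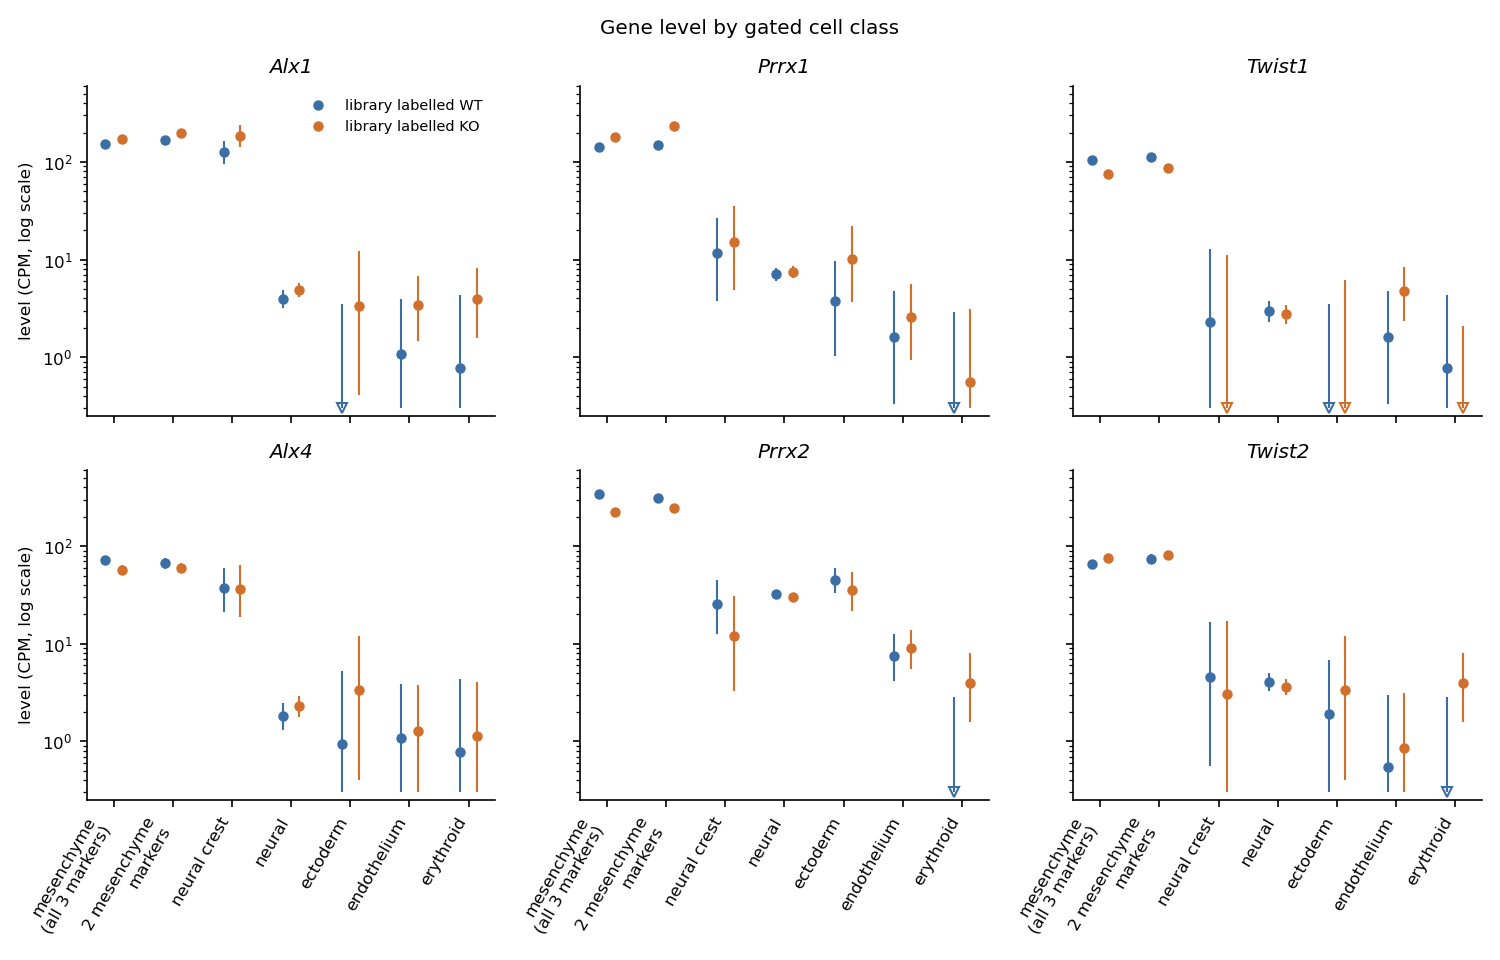
Level of each gene (CPM, log axis) in 7 groups of cells, 1 of which is the cells with only 2 mesenchyme markers. Blue points stand for the library labelled WT and orange points for the library labelled KO. Vertical lines stand for exact 95% counting intervals, and open triangles at the foot of the axis for a count of 0. In neural crest cells *Alx1* stays near its level in mesenchyme, the *Alx4* points lie below those of mesenchyme, and *Prrx1* and both *Twist* genes are low. In neural and ectoderm cells *Prrx2* is the gene nearest to its own level in mesenchyme.

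Among the other gated classes, *Alx1*, *Alx4* and *Prrx1* were highest in neural crest cells, *Prrx1* there from 5 UMIs in each library. *Prrx2* was highest in ectoderm cells, followed by neural cells. The *Twist* genes had 0 to 2 UMIs in neural crest cells, too few to be ordered. Neural crest cells, gated by *Sox10*, *Erbb3*, *Foxd3* and *Ednrb*, numbered 25 in WT and 22 in KO. Their *Alx1* level was 127 CPM (95.7 to 165) in WT and 185 CPM (142 to 238) in KO, and the ratio of mesenchyme to neural crest was 1.2 (0.91 to 1.60) and 0.92 (0.71 to 1.21). After thinning, 69.6% and 86.4% of these cells had an *Alx1* UMI, against 67.1% and 66.8% of mesenchyme cells. *Alx4* stood at 37.0 CPM and 36.5 CPM in neural crest cells, and mesenchyme was 1.95-fold (1.19 to 3.44) and 1.57-fold (0.89 to 3.07) higher. The thinned share of neural crest cells with an *Alx4* UMI was 21.7% (7.46 to 43.7) in WT and 18.2% (5.19 to 40.3) in KO. In mesenchyme it was 51.0% (44.6 to 57.5) and 39.7% (34.4 to 45.0). Thus the intervals for *Alx1* included equal levels in mesenchyme and neural crest cells in both libraries, and those for *Alx4* did so in KO.

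The other 4 genes had few UMIs in neural crest cells. *Twist1* had 1 UMI in the 25 WT cells and 0 in the 22 KO cells, where 3 counts, taken as the limit of a count of 0, stand for 9.11 CPM. *Twist2* had 2 UMIs and 1 UMI, *Prrx1* had 5 and 5, and *Prrx2* had 11 and 4. *Prrx1* was 12.3-fold (5.23 to 37.9) lower there than in mesenchyme in WT and 11.8-fold (5.04 to 36.4) lower in KO. Within neural crest cells 55 *Alx1* UMIs stood against 5 *Prrx1* UMIs in WT, and 61 against 5 in KO, whereas in mesenchyme *Alx1* and *Prrx1* were counted at 886 against 826 and 1121 against 1177 UMIs. After thinning, 1 of 23 WT cells and 0 of 22 KO cells of this gate had a *Pdgfra* UMI, and 8 and 4 had a *Col3a1* UMI. *Alx1* stood at 127 CPM in the 15 thinned WT cells without *Col3a1* and at 206 CPM in the 18 such KO cells.

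In neural and ectoderm cells *Prrx2* stayed nearer to its own mesenchyme level than the other members did to theirs. In neural cells it stood at 32.0 CPM (29.8 to 34.5) in WT and 29.9 CPM (27.9 to 31.9) in KO, and in ectoderm cells at 44.7 CPM (32.8 to 59.4) and 35.2 CPM (21.8 to 53.9). In endothelial cells it stood at 7.58 CPM (4.15 to 12.7) and 9 CPM (5.57 to 13.8), below the neural and ectoderm intervals in both libraries, and erythroid cells gave 0 UMIs in WT and 7 UMIs, all from 1 cell, in KO. The other 5 members lay between 1.80 and 7.43 CPM in neural cells and between 0 and 10.1 CPM in ectoderm cells. Restricting neural cells to those without a UMI of any mesenchyme marker, a choice made after the data were seen, left 631 WT and 911 KO cells. *Prrx2* then stood at 24.3 CPM (22 to 26.8) in WT and 24.0 CPM (22 to 26.1) in KO. *Twist1* went from 2.95 to 0.81 CPM in WT and from 2.76 to 0.90 CPM in KO. *Alx4* went from 1.80 to 0.64 CPM and from 2.31 to 0.76 CPM, and *Alx1* from 3.96 to 2.03 CPM and from 4.87 to 2.34 CPM. *Prrx1* went from 7.04 to 2.95 CPM and from 7.43 to 4.13 CPM, and *Twist2* from 4.09 to 2.14 CPM and from 3.63 to 1.80 CPM. The number of *Prrx2* UMIs per *Prrx1* UMI was 2.42 (2.23 to 2.63) in WT mesenchyme and 8.24 (6.15 to 11.2) in those neural cells, and 1.24 (1.15 to 1.35) and 5.80 (4.64 to 7.32) in KO. Over all neural cells that number was 4.55 (3.83 to 5.43) in WT and 4.02 (3.46 to 4.69) in KO, above the mesenchyme intervals. The share of free RNA in these cells was not measured, and its part in the neural levels was not tested. Among thinned WT neural cells *Prrx2* was at 38.7 CPM with *Rax*, an eye field homeobox gene, and 25.7 CPM without it, a ratio of 1.5 (1.14 to 2.01), and in KO the ratio was 1.23 (0.94 to 1.63). With *Mitf*, which marks presumptive pigment epithelium, it was at 20.9 CPM against 42.2 CPM without in WT, a ratio of 0.50 (0.36 to 0.66), and at 24.5 CPM against 26.2 CPM in KO, a ratio of 0.93 (0.72 to 1.21). *Prrx1* gave a ratio of 0.32 (0.13 to 0.70) for *Mitf* in WT, from 8 and 38 UMIs, and 1.05 (0.64 to 1.67) in KO. The splits by *Rax* and *Mitf* were chosen after the levels had been seen. The few neural cells with *Emx2* held more UMIs per cell of every member than the others, except of *Alx4* in KO. Most UMIs of each member still lay in the others. In WT, 6 such thinned cells had 7 *Prrx1* UMIs, against 39 in the 734 others, and 10 *Prrx2* UMIs against 240. In KO, 9 such cells had 13 *Prrx1* UMIs, against 71 in the 1063 others, and 5 *Prrx2* UMIs against 270. For *Alx1* the counts were 1 against 24 in WT and 8 against 41 in KO, and for *Alx4* 3 against 15 and 0 against 13. For *Twist1* they were 5 against 19 and 4 against 26, and for *Twist2* 2 against 19 and 2 against 34. Intervals of the ratio included 1 for *Alx1* in WT and for *Alx4*, *Prrx2* and *Twist2* in KO. Splits by further neural genes are not reported here.

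Shares of cells with a UMI were compared after each cell had been thinned to 10000 UMIs, which left 243 WT and 343 KO mesenchyme cells and dropped 17 and 9 shallower ones. The gates had been set before thinning, at the full, unequal depths of the cells. Thinning therefore did not make the choice of cells equal between the libraries. *Prrx2* was found in 88.9% (84.2 to 92.5) of WT and 83.7% (79.3 to 87.4) of KO mesenchyme cells. *Prrx1* was found in 75.3% and 74.9% and *Alx1* in 67.1% and 66.8%, so that these shares differed by less than their counting intervals. *Alx4* was found in 51.0% (44.6 to 57.5) of WT and 39.7% (34.4 to 45.0) of KO cells, *Twist1* in 63.8% (57.4 to 69.8) and 49.6% (44.1 to 55.0), and *Twist2* in 43.2% (36.9 to 49.7) and 54.8% (49.4 to 60.2). The *Twist1* intervals did not overlap between the libraries, and those of *Alx4* and *Twist2* overlapped by less than 1 percentage point. That separation depended on the random draw of the thinning. With another draw *Twist1* was found in 58.0% (51.5 to 64.3) of WT and 52.2% (46.8 to 57.6) of KO cells and *Twist2* in 46.9% (40.5 to 53.4) and 54.2% (48.8 to 59.6), with overlapping intervals, and without a filter on cells the *Twist1* intervals also overlapped. Without thinning the shares in mesenchyme ran from 67.3% for *Twist2* to 96.9% for *Prrx2* in WT and from 55.4% for *Alx4* to 94.6% for *Prrx2* in KO. In neural cells, whose median depths were 25362 and 22126 UMIs, the thinned share was 23.9% and 19.6% for *Prrx2* and between 1.21% and 5.97% for the other 5 genes.

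**Figure D2:**
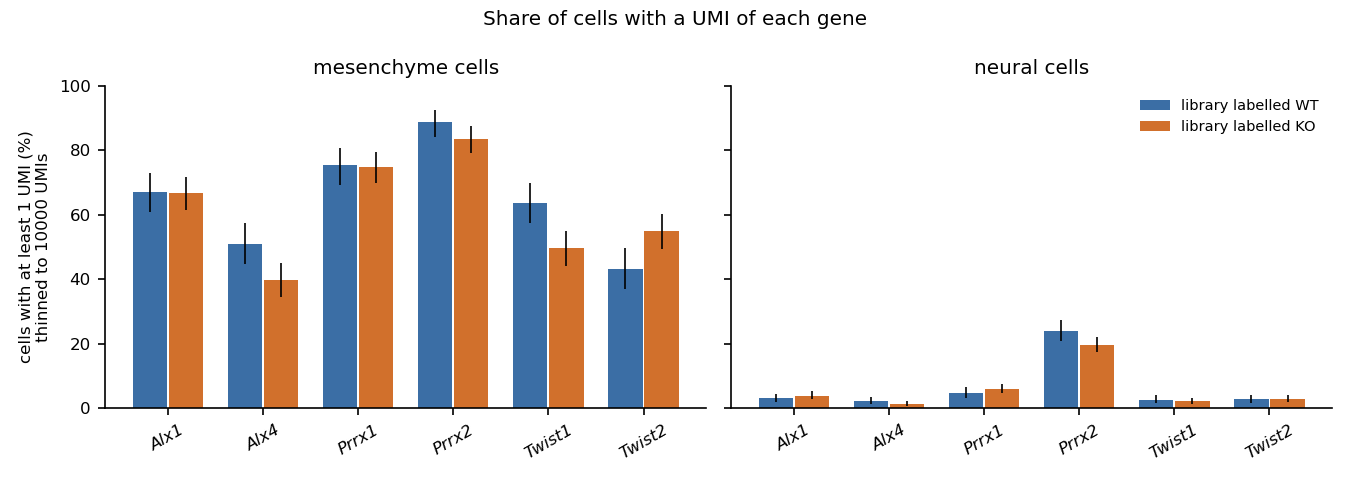
Percentage of mesenchyme cells (left) and neural cells (right) with at least 1 UMI of each gene after thinning to 10000 UMIs per cell; bars start at 0, blue is the library labelled WT, orange the library labelled KO, and lines are exact 95% binomial intervals. In mesenchyme the *Twist1* bars stand at 63.8% and 49.6%, which were 58.0% and 52.2% with another random draw, and the *Twist2* bars at 43.2% and 54.8%, while in neural cells only *Prrx2* is above 10%.

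Between the libraries, 1 gene of each pair of members had a lower level in KO mesenchyme and the other a higher one, though the ratios of *Alx1* and *Twist2* were close to 1. *Prrx2* was 0.65 times (0.61 to 0.69) its WT level in KO mesenchyme, from 2001 UMIs in WT and 1465 in KO, and lay below all but 1.08% of the 8165 genes with at least 100 UMIs. *Prrx1* was 1.26 times (1.16 to 1.38) its WT level, above 93.3% of those genes. *Twist1* was 0.71 times (0.63 to 0.80) and *Twist2* 1.15 times (1.0 to 1.32) the WT level. *Alx4* was 0.80 times (0.69 to 0.92) and *Alx1* 1.12 times (1.03 to 1.23) the WT level. The interval of *Alx1* included 1 with at least 2 UMIs of each marker, at 1.02 (0.88 to 1.17), without cells with markers of another class and after thinning, and that of *Twist2* did so under 5 alternatives, for example at 1.14 (0.99 to 1.30) with median-of-ratios scaling. The median over all 8165 genes was 1.01, and the median of the 6 members was 0.96. Taken as a difference of at least 1.5-fold, 1 of the 6 was lower in KO, namely *Prrx2*, where 1.3% of all genes were, and 0 of the 6 were higher, where 1.36% of all genes were. *Prrx2* stayed below 1 but no longer passed 1.5-fold with stricter or looser gates, at 0.73 with at least 2 UMIs of each marker and 0.70 with 2 of the 3 markers.

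**Figure D3:**
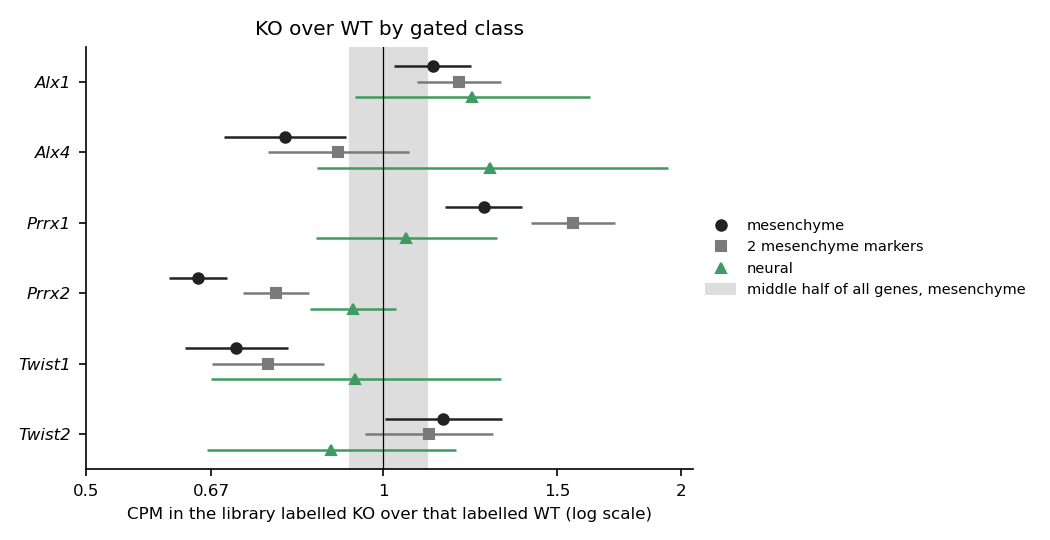
Ratio of the level in the library labelled KO to that in the library labelled WT (log axis) for each gene in mesenchyme cells (black circles), cells with 2 mesenchyme markers (grey squares) and neural cells (green triangles), with exact 95% counting intervals as lines; the grey band runs from the lower to the upper quartile of the 8165 genes in mesenchyme. *Prrx2* at 0.65, *Twist1* at 0.71 and *Alx4* at 0.80 lie left of the band in mesenchyme. *Prrx1* at 1.26, *Twist2* at 1.15 and *Alx1* at 1.12 lie right of it, and the intervals of *Twist2* and *Alx1* reach into it.

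Cells with 2 mesenchyme markers, which are separate cells of the same embryos, gave the same directions. There *Prrx2* was 0.78 times (0.72 to 0.84), *Twist1* 0.76 times (0.67 to 0.87) and *Prrx1* 1.55 times (1.41 to 1.71) the WT level, and *Alx4* at 0.90 (0.76 to 1.06) and *Twist2* at 1.11 (0.96 to 1.29) had intervals that included 1. In neural cells all 6 intervals included 1, with *Prrx2* at 0.93 (0.84 to 1.03). Leaving out mesenchyme cells with 3 markers of another class gave 0.61 for *Prrx2*, 0.67 for *Twist1*, 0.75 for *Alx4*, 1.08 for *Alx1*, 1.12 for *Twist2* and 1.22 for *Prrx1*. Per cell, *Prrx2* ran up to 44 UMIs with a median of 6 in WT and up to 25 with a median of 3 in KO, and 167 of 260 WT cells and 128 of 352 KO cells had at least 5 at their full, unequal depths. At those depths the variance of UMIs per mesenchyme cell was 1.28 to 4.96 times the mean for the 6 genes. The intervals of levels and ratios do not hold that spread.

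The paired moves changed the balance within each pair. *Prrx2* UMIs per *Prrx1* UMI went from 2.42 in WT to 1.24 in KO mesenchyme, and from 2.08 (1.89 to 2.30) to 1.04 (0.97 to 1.12) in cells with 2 mesenchyme markers. *Twist1* UMIs per *Twist2* UMI went from 1.62 (1.43 to 1.85) to 1.0 (0.88 to 1.14), and *Alx1* UMIs per *Alx4* UMI went from 2.11 (1.88 to 2.37) to 2.97 (2.64 to 3.35). In the same draw of thinned cells, *Twist1* without *Twist2* was found in 37.0% (31.0 to 43.4) of WT and 20.1% (16.0 to 24.8) of KO cells, and *Twist2* without *Twist1* in 16.5% (12.0 to 21.7) and 25.4% (20.8 to 30.3). Both *Twist* genes were found in 26.7% and 29.4% of cells. Both *Prrx* genes were found in 67.9% and 63.0% of cells, and both *Alx* genes in 35.8% (29.8 to 42.2) and 26.8% (22.2 to 31.8). These are 1 embryo against 1 embryo, and the embryo, the cut of the tissue and the genotype cannot be told apart.

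Most mesenchyme cells carried several of the factors at once. The median was 4 of the 6 genes per thinned cell in both libraries. At least 4 were found in 63.0% (56.6 to 69.0) of WT and 58.3% (52.9 to 63.6) of KO mesenchyme cells, against 0.81% and 0.84% of neural cells. All 6 were found in 17 of 243 WT cells and 22 of 343 KO cells, and none in 2 and 3 cells. The most frequent combination in WT was all but *Twist2*, with 32 cells, and the most frequent in KO was *Alx1*, *Prrx1*, *Prrx2* and *Twist1*, with 26 cells.

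**Figure D4:**
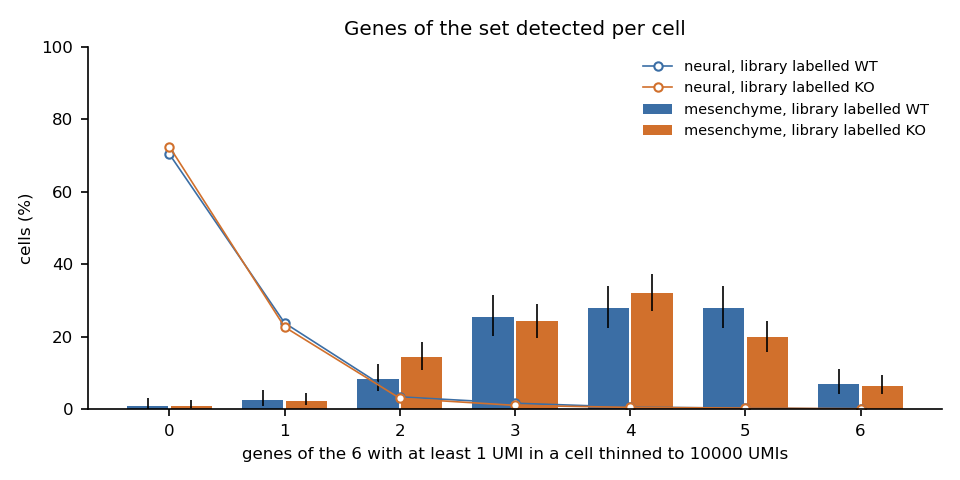
Percentage of cells by the number of the 6 genes with at least 1 UMI after thinning to 10000 UMIs; bars are mesenchyme cells with exact 95% binomial intervals, open circles joined by lines are neural cells, blue is the library labelled WT and orange the library labelled KO. Bars peak at 3 to 5 genes, and 70.4% and 72.5% of neural cells have none.

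Some pairs were found together more often than others. For each of the 15 pairs, the share of thinned mesenchyme cells with 1 gene was compared between cells with and without the other. It was higher in cells with the other gene for 9 pairs in both libraries, lower for 2 pairs in both, and in different directions for 4. The intervals with and without the other gene overlapped for every pair in both libraries, except *Prrx1* and *Twist1* in WT. The counts of pairs have no share for pairs of other genes beside them, because none was computed. Within each library it was higher for 11 of the 15, and for 8 after thinning to 6000 UMIs. These shares rest on a single random draw of the thinning. *Alx1* was found in 72.3% (64.5 to 79.1) of WT cells with *Twist1* and 58.0% (47.0 to 68.4) of those without, and in 72.9% (65.6 to 79.5) and 60.7% (53.0 to 68.0) in KO. *Alx4* was found in 53.7% (46.8 to 60.5) of WT cells with *Prrx2* and 29.6% (13.8 to 50.2) of the 27 without it, and in 42.5% (36.7 to 48.5) and 25% (14.4 to 38.4) in KO. *Prrx1* was found in 81.9% (75 to 87.6) of WT cells with *Twist1* and 63.6% (52.7 to 73.6) of those without. In KO it was found in 75.9% and 74.0%, so that in this draw the shares were separated in WT only. Pearson's r of *Prrx1* and *Twist1* across all mesenchyme cells, computed as described below, was nearly the same in WT (0.20) and KO (0.19).

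All 4 pairs that changed direction held *Twist2*, so that no pair with *Twist2* was found together more often in both libraries. In WT, *Alx1* was found in 57.1% (47.1 to 66.8) of cells with *Twist2* and 74.6% (66.5 to 81.7) of cells without it, and in KO in 64.9% (57.6 to 71.7) and 69.0% (61.1 to 76.2). The relation between *Alx4* and *Prrx1* was the other one below 0 in both libraries, at −3.06 and −9.16 percentage points, with overlapping intervals. The relations of *Twist2* with *Alx4* and with *Twist1* were below 0 in WT and above 0 in KO, and those with *Prrx1* and *Prrx2* were above 0 in WT and below 0 in KO. All such values describe cells of 1 embryo each, and cells of a library share their depth and their preparation.

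**Figure D5:**
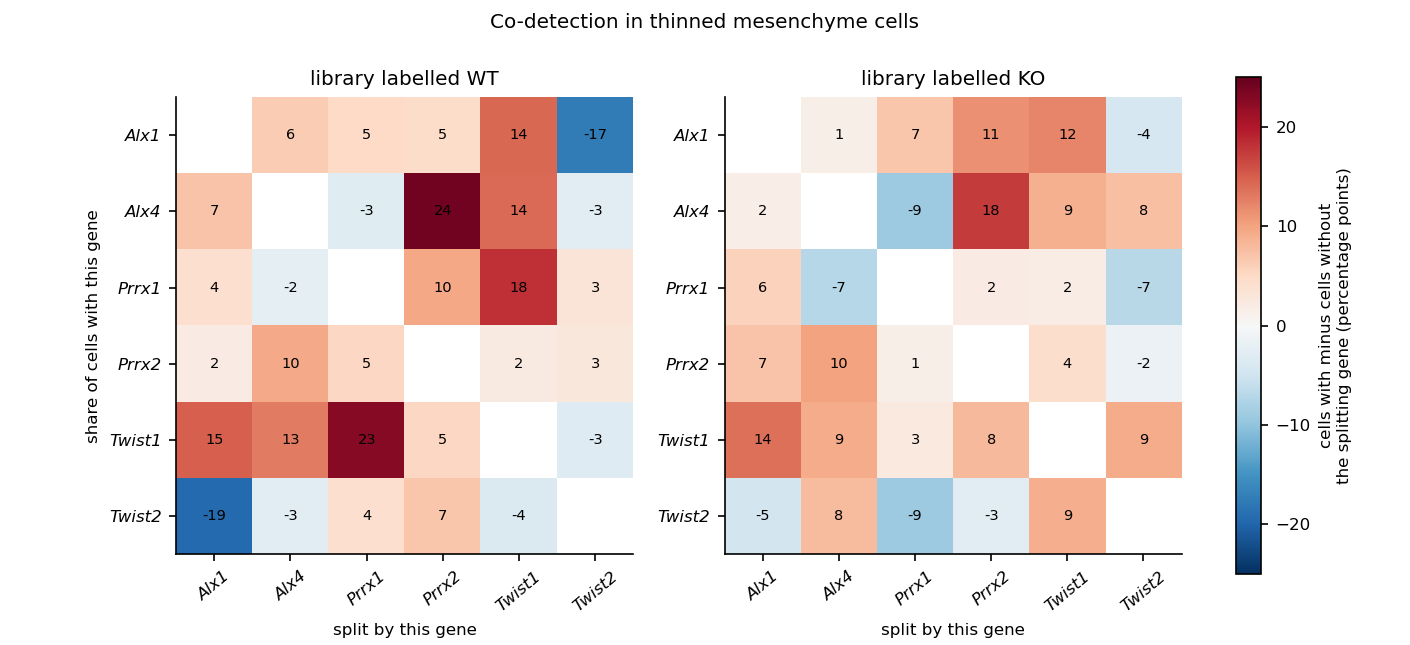
Difference, in percentage points, between the share of thinned mesenchyme cells with the row gene among cells with the column gene and among cells without it, for the library labelled WT (left) and KO (right); red is above 0 and blue below. The largest negative cells are *Twist2* with *Alx1* in WT, at −17.5 and −19.4 points, and the *Twist1* row is above 0 for *Alx1*, *Alx4*, *Prrx1* and *Prrx2* in both libraries.

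Across mesenchyme cells the genes most like each member were ranked by Pearson's r of log2(UMIs per 10000 + 1), averaged over the libraries, among 8733 genes found in at least 10% of the cells. These r values are descriptions over 260 and 352 cells that share a library and were scaled from their full, unequal depths. The gate is not independent of the members. Its marker *Col1a2* ranked 4 for *Alx1*, with r of 0.26 and 0.37, where *Col3a1* had −0.07 and −0.14 and *Pdgfra* 0.12 and 0.04. In mesenchyme *Col1a2* was 1.21 times (1.11 to 1.33) its WT level in KO. *Alx1* was most like *Crabp1*, which encodes a retinoic acid binding protein, with r of 0.57 in WT and 0.63 in KO, and *Crabp2* had r of 0.37 and 0.38. At the other end, *Foxd1*, a forkhead gene, had the lowest r with *Alx1*, at −0.35 and −0.39. *Twist1* was most like *Igfbp4* (0.33 and 0.33), *Crabp1* (0.29 and 0.30) and the member *Alx1* (0.26 and 0.28). *Prrx2* was most like *Id2* (0.46 and 0.24), *Igfbp4* (0.40 and 0.27) and *Irx3* (0.30 and 0.22). *Alx4* was most like *Dlk1* (0.33 and 0.17), *Igf1* (0.25 and 0.22) and *Meg3* (0.26 and 0.21), and *Twist2* was most like *Ebf2* (0.25 and 0.18), *Kctd12* (0.26 and 0.13) and *Ndnf* (0.20 and 0.17).

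*Prrx1* was most like Gm26523 (0.25 and 0.30), a noncoding gene that lies within the *Prrx1* gene on the same strand and overlaps none of its exons, followed by *Crabp1* (0.25 and 0.29) and *Tbx2* (0.13 and 0.40). Molecules of unspliced *Prrx1* RNA cannot be told apart from Gm26523 by position and strand alone. Within the set, *Alx1* and *Prrx1* had r of 0.20 and 0.31, *Twist1* and *Prrx2* 0.30 and 0.19, and *Alx1* and *Twist2* −0.22 and −0.14. For *Prrx1* and *Twist1* r was 0.20 and 0.19. Between the genes of a pair, r was −0.06 and 0.02 for *Alx1* and *Alx4*, 0.04 and 0.16 for *Prrx1* and *Prrx2*, and −0.04 and 0.04 for *Twist1* and *Twist2*. These 3 within-pair values were low in both libraries.

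Other regulators of head mesenchyme split the members. In thinned mesenchyme cells with *Foxd1* (79 of 243 in WT and 92 of 343 in KO), *Alx1* was at 109 CPM against 193 CPM without it in WT, a ratio of 0.56 (0.44 to 0.72), and at 78.3 CPM against 222 CPM in KO, a ratio of 0.35 (0.27 to 0.45). *Prrx1* gave ratios of 0.69 (0.54 to 0.86) and 0.58 (0.47 to 0.70) for the same split, and *Twist2* gave 0.90 (0.63 to 1.27) and 0.99 (0.75 to 1.31). Cells with *Six2* had more *Alx4*, with ratios of 1.43 (1.06 to 1.93) and 1.40 (1.03 to 1.88). With *Msx1*, *Alx4* gave a ratio of 1.60 (1.18 to 2.16) in WT and 0.93 (0.68 to 1.26) in KO.

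The KO and WT levels were also compared inside those subsets. For the 7 partner genes with at least 30 cells on each side of the split in both libraries, there were 14 subsets of cells. *Prrx2* was lower in KO in all 14, with ratios from 0.52 to 0.75, as were *Twist1*, from 0.53 to 0.77, and *Alx4*, from 0.53 to 0.92. *Twist2* was higher in KO in all 14, from 1.06 to 1.37, and *Prrx1* in 13, from 0.98 to 1.54. *Alx1* was higher in 11 and lower in 3, from 0.72 in cells with *Foxd1* to 1.38 in cells with *Msx1*. The subsets share cells and are not independent of each other.

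Other genes of the same families were looked at as a list. Of the relatives, *Hand1*, *Hand2* and *Msc* had no UMI in mesenchyme of either library. The other relatives on the list were counted there in at least 1 library, and their values are not reported here. Of the 7 dimer partners and inhibitors of the Twist proteins, none was 4-fold above other cells, where 0.788% of all genes tested were. One of 6 tested, *Id1*, was at least 1.5-fold higher in KO, where 1.36% of all genes were. It stood at 77.7 CPM (70.7 to 85.2) in WT and 126 CPM (118 to 135) in KO. The E protein genes gave KO over WT ratios of 1.05 (0.98 to 1.14) for *Tcf3*, 0.92 (0.84 to 1.02) for *Tcf4* and 0.91 (0.83 to 1.0) for *Tcf12*, all within 1.5-fold. The list median was 0.99 for the 6 tested partners, where the median of all genes was 1.01.

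Of the 30 other transcription factors of head mesenchyme on the list, 25 could be tested between classes. Of these, 13 were at least 4-fold above other cells in both libraries, among them *Foxc1*, *Six2* and *Msx1*, where 0.788% of all genes tested were. Between libraries 1 of 19 tested was at least 1.5-fold higher in KO, *Ebf1* with 1.63 times (1.49 to 1.78), where 1.36% of all genes were. Lower by that fold were 3, where 1.3% of all genes were, namely *Foxd1* with 0.63 (0.53 to 0.75), *Msx2* with 0.51 (0.38 to 0.66) and *Tfap2b* with 0.59 (0.46 to 0.76). The median of the 19 was 1.0. Of 16 matrix and receptor genes, 3 of 15 tested, *Col1a1*, *Lum* and *Pdgfrb*, were at least 4-fold above other cells in both libraries, again against 0.788% of all genes. None of 13 differed by 1.5-fold between libraries, with a median of 0.99. The ratios of *Msx2*, *Tfap2b* and *Foxd1* lay below that of *Prrx2*, the lowest of the 6 members. The intervals of all 3 overlapped that of *Prrx2*.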

How the data were processed

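The deposited tables held whole-number counts of UMIs for each gene and cell barcode, not scaled per cell, from 1745 WT and 2458 KO barcodes of Chromium 3′ v3 libraries. The authors made them with Cell Ranger against mm10 (GRCm38), and the aggr step named in their methods can thin reads of the deeper library. Cells were kept with 1500 to 8000 genes and no more than 5% of UMIs from mitochondrial genes (the methods write this limit as a fraction with a percent sign), which left 41880035 and 52430844 UMIs. Cells were classed by markers and not by clustering. No doublet caller was run, and mesenchyme cells with 3 markers of another class were left out as an alternative. UMI sums were given as CPM with exact Poisson intervals, shares with Clopper-Pearson intervals, and ratios with exact conditional binomial intervals, all at 95%, using Python 3.11.15, numpy 2.4.6 and scipy 1.17.1. With 1 library per genotype no test or p-value was computed. Ratios between libraries used genes with at least 100 UMIs. The scripts were tested on simulated data.

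The 6 genes and all lists were chosen with earlier results of these data known. Named genes were the members, list genes at least 1.5-fold apart between libraries or 4-fold above other cells in both, and the 3 genes most like each member. The gene least like *Alx1*, *Rax*, *Mitf* and list genes within these folds were named after their values were seen. Some results on other genes that this rule names are not reported here. Alternatives changed the gate, the cell filter, the scaling, the thinning and the detection limit. Gene positions came from GENCODE vM21, in which 27645 of 27998 identifiers and all 6 members matched, and upstream sequences from RefSeq, which held 4 of the 6.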

Additional observations from a re-analysis of the deposited data

How the results depend on the processing

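Of the ratios of KO to WT in mesenchyme, recomputed under 8 alternatives for each of the 6 genes, 43 stayed within the counting interval of the reported value and none changed direction. The other 5 moved beyond it, which were *Alx1* to 1.02 and *Prrx2* to 0.73 with at least 2 UMIs of each gate marker, *Prrx2* to 0.70 with 2 of the 3 markers, and, among cells with the gene only, *Alx4* to 0.97 and *Twist1* to 0.87. The last alternative leaves out cells without a UMI, so it drops any difference in the share of cells with the gene. Under it *Prrx2* was at 0.67, *Twist2* at 1.13, *Alx1* at 1.14 and *Prrx1* at 1.34. The cause of the 5 moves was not tested. The number of genes at least 4-fold above other cells in both libraries went from 5 to 2 with at least 2 UMIs of each marker and to 1 after thinning. The fold of mesenchyme over other cells moved beyond its interval in 54 cases and stayed in 18, with values from 3.12 to 39.9. Shares of cells with a UMI moved in 14 cases and stayed in 58, and shares with both genes of a pair moved in 64 and stayed in 26. The number of pairs found together more often than apart went from 11 in each library to 8 in each after thinning to 6000 UMIs and lay between 9 and 11 under the other alternatives. Levels of the 6 genes in neural cells without a mesenchyme marker, an alternative added after seeing the data, are given with the class levels. The gate held 98 WT and 109 KO cells in its strictest form and 514 and 769 in its loosest.

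No paired analysis was possible because each genotype had 1 library, and for the same reason no replicate could be left out. Depth limits the small classes: in the 22 KO neural crest cells the limit of 3 counts taken for a count of 0 stands for 9.11 CPM. Intervals cover counting error only. Classes set by markers miss cells whose markers were not captured. Fewer RNA molecules per cell and fewer cells with the gene cannot be told apart by the shares given. A lower level per cell also lowers the share of cells with at least 1 UMI.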
